A study of Mus musculus with 4 samples.

Results

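The miR-183 cluster is a group of 3 microRNAs that are cut from a shared primary transcript: mmu-miR-183, mmu-miR-96 and mmu-miR-182 (here miR-183, miR-96, miR-182). All 3 mature members had a probe of exactly that name among the 700 mouse miRNA probes of the array, and all 3 were among the 172 probes that were bright enough to be tested. MicroRNAs were measured in HC11 cells, a clonal mouse mammary epithelial line that can be switched from growth to a milk-producing state by lactogenic hormones. The differentiated group, 2 samples, was held for 48 h in 2% serum without epidermal growth factor and then received 100 nM dexamethasone and 1 µg/mL ovine prolactin for 72 h. The proliferating group, 2 samples, grew in 10% serum plus epidermal growth factor for 48 h before collection and is labelled stem cell-like. Each of the 2 arrays was taken to carry the same-numbered differentiated and proliferating samples in opposite dyes. Cy5 was on the differentiated sample of array 1 and Cy3 on that of array 2. The labels give no information on separate cultures within a stage, and the p-values therefore rest on a spread between samples that may be technical alone.

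A microRNA guides silencing complexes to messenger RNAs mainly through its seed, the bases near its 5′ end, and related seeds give overlapping sets of targets. The miR-183 cluster is best known from sensory organs such as the retina and the inner ear, where changes in the seed of miR-96 cause hearing loss in mice and people. In epithelial tumours, breast cancer among them, the members are often high and have been linked to repression of FOXO transcription factors.

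The 3 mature sequences are shown because their seeds are alike but not the same. Whether the probes cross-hybridise was not tested. They are written 5′ to 3′ with the seed, bases 2 to 8, in capitals, and the array's targets matched the RefSeq entries letter for letter.
miR-183: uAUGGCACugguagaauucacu
miR-96: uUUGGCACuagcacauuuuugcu
miR-182: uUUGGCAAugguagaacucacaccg
Counted from 1 at the 5′ end, miR-183 differs from miR-96 within bases 1 to 8 by A2U, and miR-96 differs from miR-182 by C8A. miR-183 differs from miR-182 there by both, A2U and C8A. miR-96 and miR-182 thus share bases 2 to 7, and no other of the 699 remaining probes carries the full seed of any member. Over their whole lengths miR-183 lies 7 edits from miR-182 and 8 from miR-96, and miR-96 lies 12 from miR-182. The nearest probe outside the cluster is 7 edits away for miR-183, 8 for miR-96 and 9 for miR-182. GC bases make up 40.9% of miR-183, 39.1% of miR-96 and 48% of miR-182, beside a median of 47.7% over all miRNA probes.

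In RefSeq (GRCm38.p6) the 3 hairpins lie on the minus strand of mouse chromosome 6 and inside the annotated span of Mirc35hg, a long non-coding RNA gene, between the protein-coding genes Nrf1 and Ube2h. Whether they fall in its exons or introns was not analysed here. Transcription runs from Mir183 (chr6:30169668-30169737) through Mir96 (chr6:30169446-30169551) to Mir182 (chr6:30165918-30165992). Mir183 and Mir96 are 116 bases apart, and 3453 bases separate Mir96 from Mir182. The Mir183 hairpin is shown because the array probed both of its strands, which are in capitals here.
Mir183 hairpin: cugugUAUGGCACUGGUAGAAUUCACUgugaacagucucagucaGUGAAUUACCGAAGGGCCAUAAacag
The first run in capitals is miR-183 and the second is miR-183*, the partner strand, which is usually the less stable of the pair.

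The samples differed in overall brightness and background. Empty spots averaged 39.1 to 287.8 intensity units per sample, and the median signal over background of the 118 probes detected in all 4 samples ran from 562 to 2316. A probe counted as detected where at least 3 of its 5 spots lay over the mean of the empty spots by over 3 SDs of those. This margin was 7.75 and 156.5 intensity units over background in differentiated samples 1 and 2, and 13.2 and 53.7 in proliferating samples 1 and 2. Of 7 epithelial marker miRNAs 6 were detected in some sample and 4 in all, with miR-141 in none, while none of 2 endothelial markers and 1 of 7 blood markers (miR-486) was detected. Of 3 neuron and sensory markers miR-9 and miR-128 were detected in some sample and miR-124 in none.

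No member of the cluster was called different between the stages, beside 30.2% of all tested probes. miR-183 and miR-182 were bright in every sample and stayed within a small ratio of 0, with opposite signs on the 2 arrays. miR-96 was dim, was detected in both differentiated samples and in neither proliferating one, and had a positive ratio on both arrays that did not pass the test. Only its detection in the differentiated samples brought miR-96 into the test, and such a filter favours a positive ratio. At a limma adjusted p under 0.05, 0 members rose, beside 16.9% of all tested probes, and 0 fell, beside 13.4%. At an unadjusted p under 0.05 the count was also 0, beside 44.8% of all tested probes. The median log2 ratio of differentiated over proliferating cells was 0.15 over the 3 members and 0.11 over all 172 tested probes.

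miR-183, the first hairpin of the transcript, had mean spot intensities of 3193 and 6433 in differentiated samples 1 and 2, against 2082 and 2616 in proliferating samples 1 and 2. The 5 spots of a sample varied by 6.55% to 17.5% of the signal over background. After normalization its log2 intensity was 11.89 and 11.54 in the differentiated samples, against 11.44 and 11.69 in the proliferating samples. The stages overlapped, since proliferating sample 2 lay above differentiated sample 2.

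The stage means of miR-183 were 11.72 ± 0.24 in differentiated cells and 11.56 ± 0.18 in proliferating cells (SD, n = 2 each). Its log2 ratio was 0.45 on array 1 and -0.15 on array 2, with a mean of 0.15 ± 0.42 (SD, n = 2 arrays; limma adjusted p = 0.655). The fit's 95% interval of the ratio ran from -0.62 to 0.92, so changes of either sign within it could not be told from none. Among the tested probes the mean ratio of miR-183 ranked 83 from the highest of 172, close to the middle.

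miR-182, the last hairpin of the transcript, was the brightest of the 3 probes, although probes of different sequence do not bind alike and their intensities do not rank the amounts of the RNAs. Its mean spot intensities were 3459 and 10728 in differentiated samples 1 and 2, against 4297 and 3073 in proliferating samples 1 and 2. On the normalized log2 scale these became 11.98 and 12.30 in the differentiated samples, against 12.56 and 11.93 in the proliferating samples. The 2 proliferating samples lay on either side of the differentiated ones, so the stages overlapped.

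The stage means of miR-182 were 12.14 ± 0.23 in differentiated cells and 12.24 ± 0.44 in proliferating cells (SD, n = 2 each). Its log2 ratio was -0.58 on array 1 and 0.37 on array 2, with a mean of -0.10 ± 0.67 (SD, n = 2 arrays; limma adjusted p = 0.821) and a 95% interval from -1.12 to 0.91. Its sign on each array was the reverse of that of miR-183.

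**Figure D1:**
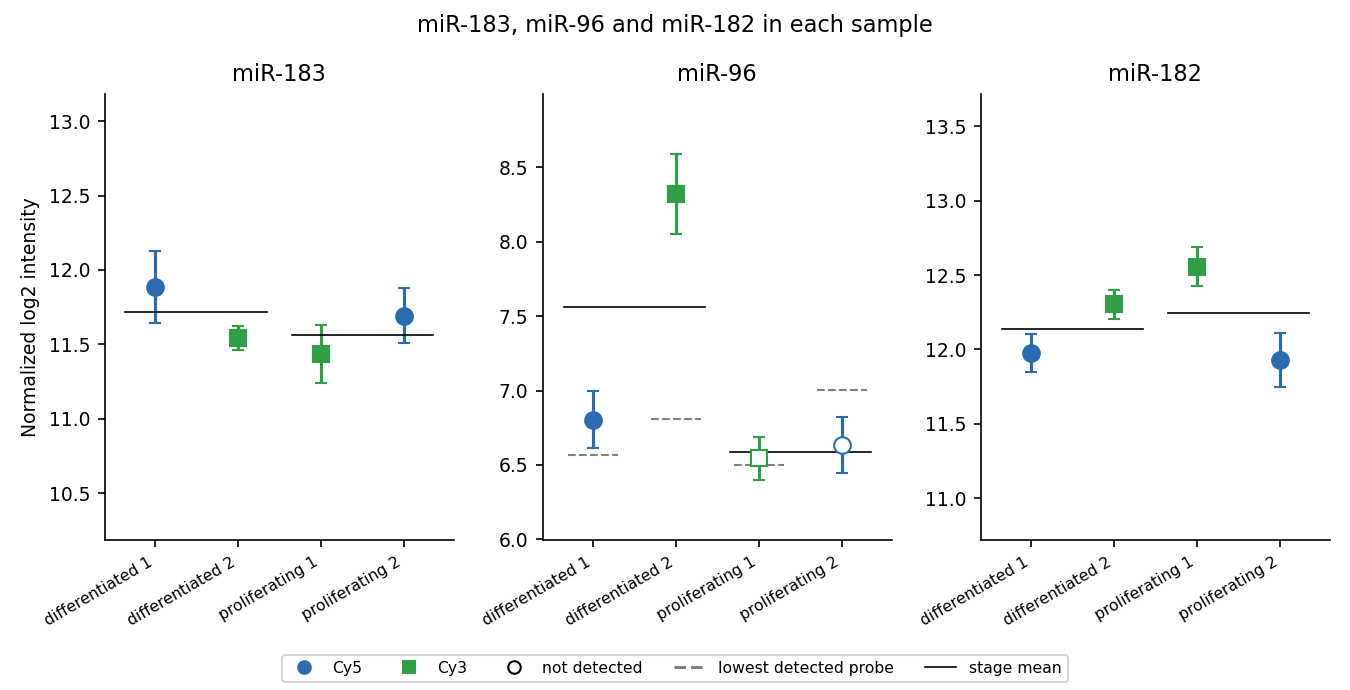
Normalized log2 intensity of each of the 3 members in each sample, with the SD over 5 spots as error bars, circles for Cy5, squares for Cy3, open symbols where the probe was not detected, black lines for stage means and, for miR-96, dashed lines at the lowest detected probe of each sample. The panels have different positions but the same span on the y axis; the stages overlap for miR-183 and miR-182, and differentiated sample 2 stands at 8.32 for miR-96, above the other 3 samples at 6.54 to 6.81.

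For miR-183 and miR-182 the samples sorted by dye. Both Cy5 samples of miR-183 (11.89 in differentiated sample 1 and 11.69 in proliferating sample 2) exceeded both Cy3 samples, with a mean difference of 0.30 on the log2 scale for Cy5 minus Cy3. For miR-182 both Cy5 samples were below both Cy3 samples, with a difference of -0.48. In each case the difference by dye was larger than the difference by stage. This is the same as ratios of opposite sign on the 2 arrays, which 2 of the 3 members had, beside 19.8% of all tested probes. Complete separation by dye was seen in 8.14% of them. The median size of the dye difference was 0.21 over the tested probes, and 61.6% of them had a smaller one than miR-183 and 87.8% a smaller one than miR-182. miR-96 did not separate by dye, since its brightest and its dimmest sample (differentiated sample 2 and proliferating sample 1) were both Cy3. Its Cy5 minus Cy3 difference was nevertheless -0.71, and 98.8% of the tested probes had a smaller one in size. With 2 arrays, a dye effect of a probe and a difference between the replicates cannot be told apart.

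miR-96, encoded between the other members and the one whose seed is mutated in hereditary deafness, was near background in 3 of the 4 samples. Its signal over the local background was 14.0 and 654 intensity units in differentiated samples 1 and 2, against 8.87 and 22.2 in proliferating samples 1 and 2. These signals were 1.81 and 4.18 times the sample's detection margin in the differentiated samples, against 0.672 and 0.413 times in the proliferating samples. Spots above the margin numbered 4 and 5 of 5 in the differentiated samples, against 1 and 0 of 5 in the proliferating samples. miR-96 was therefore detected in both differentiated samples and in neither proliferating sample, by margins that differed between the samples. Differentiated sample 1 passed with a signal of 14.0 at a margin of 7.75. Proliferating sample 2 did not pass with a higher signal of 22.2, at a margin of 53.7. Only differentiated sample 2 was well above background.

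In differentiated sample 2 the 5 spots of miR-96 lay between 701 and 1119 intensity units, in 5 separate places of the array, beside empty spots that averaged 287.8. In differentiated sample 1 they lay between 45.5 and 62.8, beside empty spots at 39.1. Of all 700 miRNA probes, 17 (2.43%) were detected in both differentiated and neither proliferating sample, as miR-96 was, and 9 (1.29%) had the opposite pattern.

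The normalized log2 intensity of miR-96 was 6.81 and 8.32 in the differentiated samples, against 6.54 and 6.63 in the proliferating samples. Both differentiated samples were above both proliferating ones, as for 34.9% of all tested probes, but the replicates of the differentiated stage were farther apart than the stage means. Those means were 7.56 ± 1.07 in differentiated cells and 6.59 ± 0.06 in proliferating cells (SD, n = 2 each). With the lowest detected signal of each proliferating sample as its limit, the bound on miR-96 was 1.73-fold for the means of these samples. It is not a minimum rise for the stage, since the fit's interval of the log2 ratio ran from -0.42 to 2.36. The difference did not pass the test (limma adjusted p = 0.189). The bound was the mean of the differentiated samples (7.56) over the mean of, per proliferating sample, the higher of that lowest signal and the probe's own value (6.77), in normalized log2 intensity. With differentiated sample 1 alone the bound was 1.02-fold, and with differentiated sample 2 alone it was 2.92-fold. Without differentiated sample 2 the log2 ratio of miR-96, fitted with no replicate block, was 0.22, and without differentiated sample 1 it was 1.73.

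The log2 ratio of miR-96 was 0.26 on array 1 and 1.69 on array 2, with a mean of 0.97 ± 1.01 (SD, n = 2 arrays) and a 95% interval from -0.42 to 2.36. An SD over the arrays smaller than this was found in 98.8% of the tested probes. Of 6 fibroblast and mesenchyme markers, 3 (miR-143, miR-145 and miR-140) were detected in some sample, with 3 and 3 in the differentiated samples and 1 and 1 in the proliferating ones, while miR-199a-3p, miR-199a-5p and miR-214 were detected in none. The summed normalized intensity of all 6 was 1272 and 2346 in the differentiated samples, against 1439 and 1380 in the proliferating samples, so that it was highest in differentiated sample 2, as miR-96 was. The sum of the 3 neuron and sensory markers was highest there too, with 350 and 496 in the differentiated samples, against 335 and 374 in the proliferating samples. The 2 endothelial markers, none of them detected, summed to 153 and 142 in the differentiated samples, against 153 and 151 in the proliferating samples. The 7 blood markers, with at most 1 detected in a sample, summed to 548 and 538, against 557 and 556. These sums of endothelial and blood markers come mostly or wholly from undetected probes and are not read as a difference. All these sums include probes that were not detected. The 7 epithelial markers summed to 22827 and 21110 in the differentiated samples, against 8879 and 7038 in the proliferating samples, higher in both samples of the differentiated stage. The part of other cells, of the epithelial markers' change or of that sample in the miR-96 values was not tested.

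The authors' deposited processed intensities gave the same picture for miR-183 and miR-182 and a call for miR-96. miR-183 had 3966 and 2691 in differentiated samples 1 and 2, against 2524 and 3607 in proliferating samples 1 and 2. miR-182 had 4059 and 5053 in the differentiated samples, against 5406 and 4069 in the proliferating samples. For both the stages overlapped and the samples again sorted by dye.

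For miR-96 the authors' deposited values were 47.73 and 173.4 in the differentiated samples, against 20.03 and 31.34 in the proliferating samples. The log2 ratio from that table was 1.25 on array 1 and 2.47 on array 2, and it passed the same limma test with a mean of 1.86 (adjusted p = 4.56e-06). In that fit limma estimated an infinite prior, which gives every probe the same spread (standard error 0.371), whereas the 2 arrays of miR-96 alone would give a standard error of 0.608. The same fit called 27.9% of all tested probes higher and 32.6% lower, against 16.9% and 13.4% as reported.

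miR-96 was called in 8 of the 18 alternative fits that tested it, 6 of them with such an infinite prior, and its ratio was positive on both arrays under all 10 settings of background, normalization and source that were run, the reported one included. Those of the calling fits that kept all 4 samples also called 26.7% to 80.2% of all tested probes higher, against 16.9% as reported. The mean was 1.28 with a normexp offset of 16 and 2.53 with plain background subtraction (limma adjusted p = 0.0065), against 0.97 with the offset of 50. A larger offset pulls the ratio of a dim probe towards 0, and all these means use proliferating signals under the detection margin. The part of either in the differences was not tested. All these settings rework the same 2 arrays, so the shared sign of miR-96 is not independent support, and its filter favours that sign. The ratios of miR-183 and of miR-182 had opposite signs on the arrays under 8 of the same 10 settings each. The exceptions were median centring on all miRNA probes and centring on 15 spike control probes, which moved the median of all tested probes to 0.53 and 1.51. Centred on the spikes, all 3 members were called higher, with 80.2% of all tested probes, and the cluster's median of 1.55 was close to that of all tested probes.

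**Figure D2:**
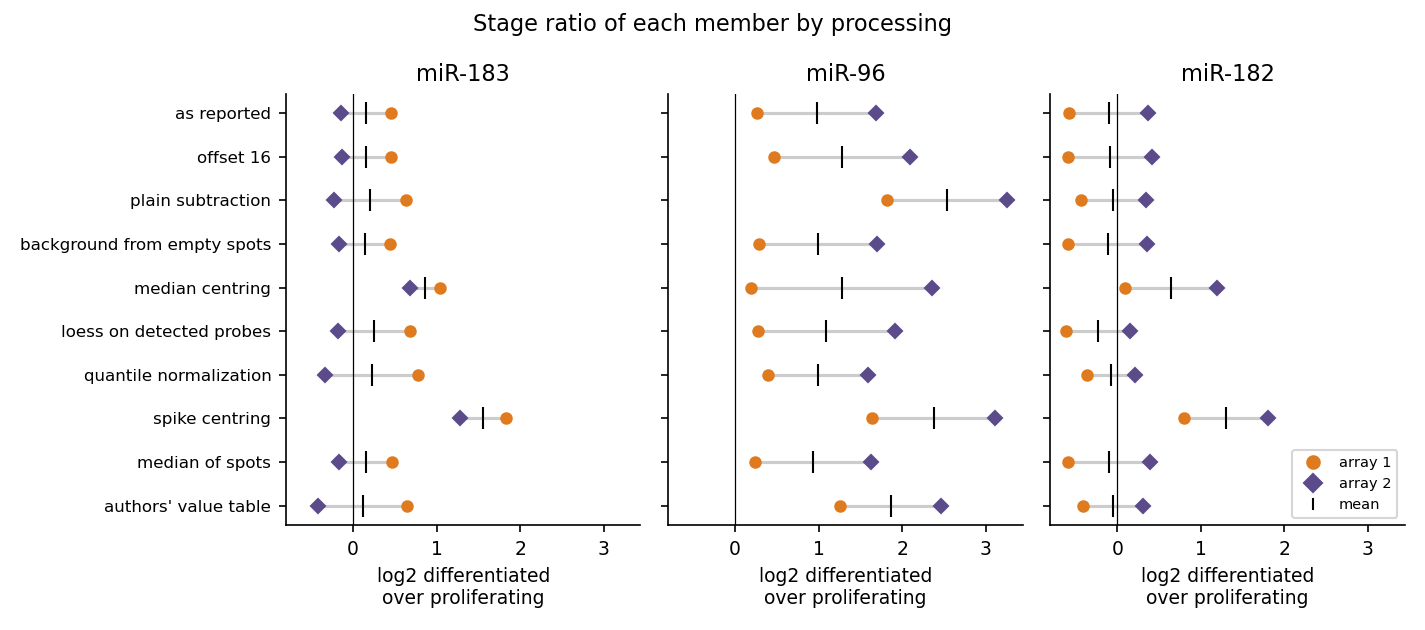
Log2 ratio of differentiated over proliferating cells for each member on array 1 (circles), on array 2 (diamonds) and as the mean (bars), under the reported processing and 9 alternatives. miR-96 is above 0 on both arrays in every row, from 0.18 to 1.82 on array 1 and from 1.59 to 3.25 on array 2, while miR-183 and miR-182 straddle 0 except with median or spike centring. The rows rework the same 2 arrays and are not independent.

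Since the members leave a shared transcript, their stage ratios were set against each other within each array. The ratio of miR-96 minus that of miR-182 was 0.84 on array 1 and 1.31 on array 2, with a mean of 1.08 ± 0.33 (SD, n = 2 arrays). miR-96 minus miR-183 was -0.19 on array 1 and 1.84 on array 2 (0.82 ± 1.43). miR-183 minus miR-182 was 1.03 on array 1 and -0.52 on array 2 (0.26 ± 1.10). The 3 differences are given as values with no test. Those with miR-96 use its measured proliferating values, which were under the detection margin, and are not bounds. With miR-96 at its bound, its log2 ratio would be 0.79 in place of 0.97, and its mean difference from miR-182 would be 0.89.

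**Figure D3:**
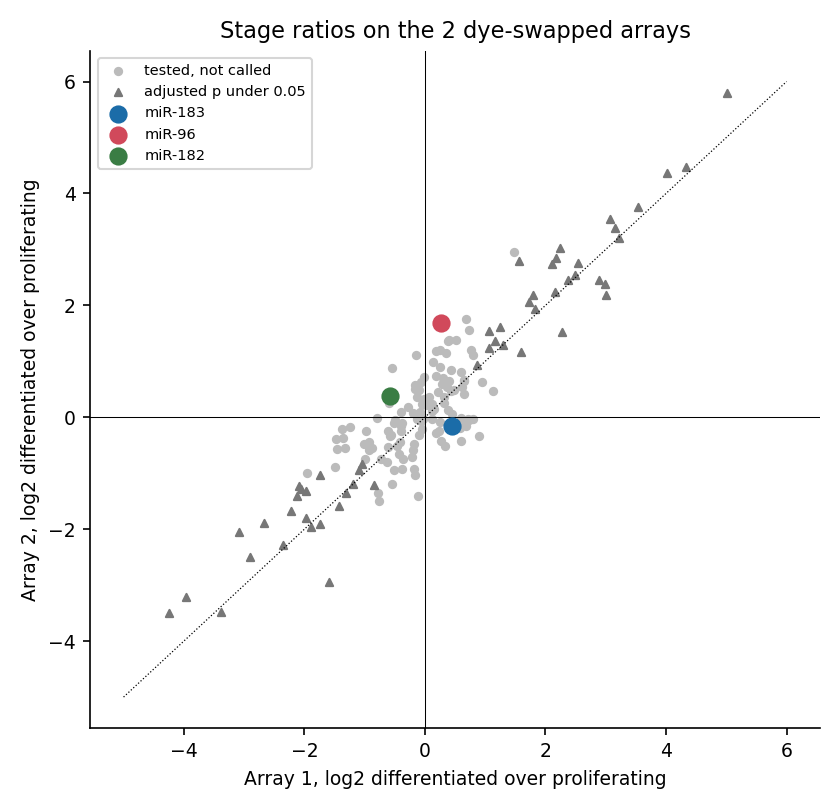
Log2 ratio of differentiated over proliferating cells on array 1 (x axis) and array 2 (y axis) for the 172 tested probes, with triangles for calls at an adjusted p under 0.05 and the dotted line at equal ratios. miR-183 (0.45 and -0.15) and miR-182 (-0.58 and 0.37) lie near the origin in opposite quadrants, and miR-96 (0.26 and 1.69) lies above the line.

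Other miRNA clusters with at least 2 tested members gave a range of log2 ratios from 0.08 to 2.33 within the cluster. The range of 1.08 in the miR-183 cluster was exceeded by 5 of these 11. With miR-96 at its bound the range was 0.89, which 7 of the 11 exceeded. No bound was applied to members of the other clusters, so this last count sets unlike measures side by side. In the cluster of miR-200b, miR-200a and miR-429, also an epithelial polycistron, all 3 members rose, from miR-429 at 1.43 to miR-200a at 3.65. All 3 members of the miR-106b cluster fell, from miR-93 at -2.57 to miR-25 at -1.65. In the cluster of miR-23b, miR-27b and miR-24, as in the miR-183 cluster, no member was called, with miR-24 at -0.73 and miR-27b at -0.02. The cluster of miR-99b, let-7e and miR-125a-5p had no call either, with miR-99b at -1.48, miR-125a-5p at 0.70 and a range of 2.19. In 8 of the 11 other clusters at least 1 member was called. Ranges of clusters with unequal numbers of members are not directly comparable, and miR-16, miR-19b, miR-24 and miR-92a are also made from a second locus.

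**Figure D4:**
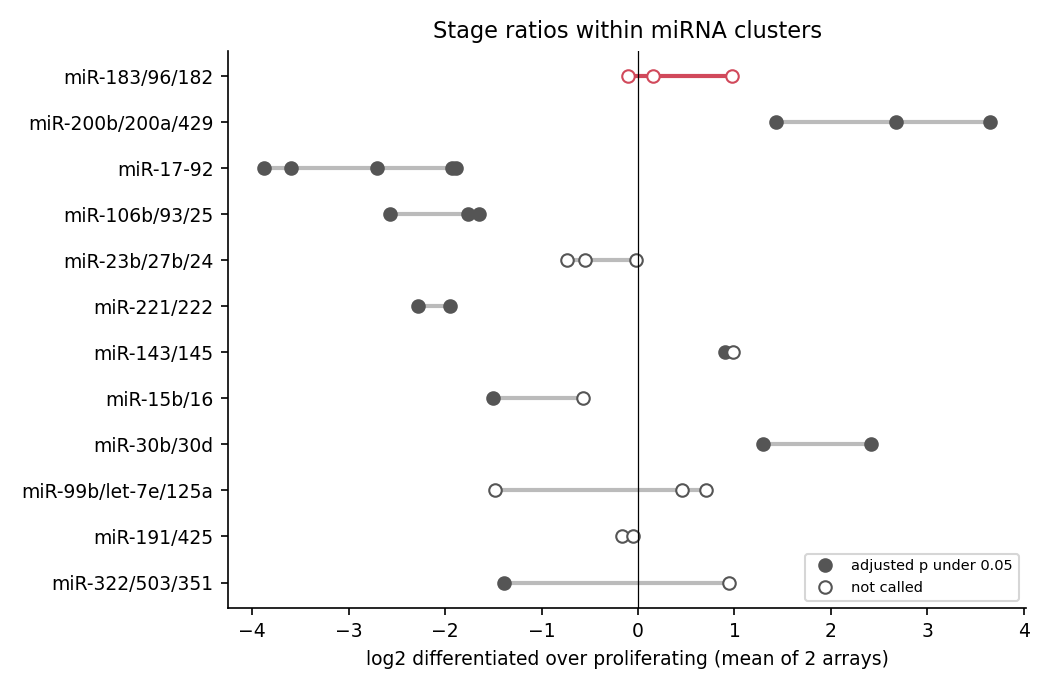
Log2 ratio of differentiated over proliferating cells (x axis, mean of 2 arrays) for the tested members of the miR-183 cluster (top) and of 11 other miRNA clusters, filled where the adjusted p was under 0.05, with a line over each cluster's range. The 3 open symbols of the miR-183 cluster run from -0.10 to 0.97.

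The 3 members were not close to each other in their pattern over the 4 samples. The measure was the root mean square difference of normalized log2 intensities, each probe centred on its own mean, and 171 other tested probes were ranked by it for each member. miR-183 was most like let-7c (0.09), let-7i (0.09), let-7a (0.11), miR-690 (0.12) and let-7b (0.14), and 26 probes lay within 0.25 of it. miR-182 was most like miR-191 (0.09), miR-425 (0.14), miR-205 (0.18), miR-1944 (0.18) and miR-181b (0.19), with 16 probes within 0.25. miR-96 was most like miR-322 (0.14), miR-15a (0.16), miR-30e (0.19), miR-9 (0.21) and miR-30a (0.23), with 6 probes within 0.25. The difference between miR-183 and miR-182 was 0.41, and miR-96 was 0.78 from miR-183 and 0.73 from miR-182. The nearest other member ranked 71 of 171 for miR-183, 61 for miR-96 and 59 for miR-182. These distances include any dye effect of each probe and carry no test.

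miR-183*, the only partner strand of the cluster with a probe on this array, was dim but detected in all 4 samples. Its signal was 1.91 and 1.06 times the detection margin in the differentiated samples, against 2.70 and 1.85 times in the proliferating samples. Its log2 ratio was -0.20 on array 1 and -0.59 on array 2 (mean -0.40 ± 0.27, SD, n = 2 arrays; limma adjusted p = 0.228), below 0 on both arrays and not called. The strand cut from the same hairpin, miR-183, was at 0.15 ± 0.42.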

How the data were processed

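Per the labels' protocols, a service provider, LC Sciences, separated small RNAs by size, added a poly(A) tail and a tag, and stained the tag with either dye. The deposited scanner tables hold, per the file headers, the mean intensity of each of 3968 spots and its SD for 1 channel per sample, with background and not normalized. The authors also deposited a table of processed intensity, with medians of 15.1 and 13.9 in differentiated samples 1 and 2 and of 13.9 and 13.6 in proliferating samples 1 and 2. It correlated with the values used here at an r of 0.985 to 0.997 per sample over tested probes, and its scaling and centring stay unknown. No image software is named in the labels or headers.

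The local background was the 20th percentile of spots within 7 rows and columns. Spots were corrected with normexp (offset 50; limma 3.58.1, R 4.3.3), loess with span 0.3 (controls weighted 0) was applied to the ratios of each array, and each probe took the mean of its 5 spots. Testing was by lmFit and eBayes on log2 ratios of the 172 probes detected in both samples of either stage, two-sided, Benjamini-Hochberg adjusted over all of them, at 1 residual and 2.08 prior degrees of freedom. The script was tested on simulated data, with true changes only in probes detected in every sample and no dye effect of single probes. That test therefore does not bear on a dim probe such as miR-96 or on values that sort by dye. Levels per sample are log2 values after loess and Aquantile. Same-numbered samples were taken as the 2 channels of an array, from the dyes and the series' design text, and the correlation of their deviations from the stage means was 0.343. That value was taken after normalization within these pairs, so it cannot check the pairing. The labels give the growth factor in conflicting units, so its concentration is not used. Sequences came from the deposited tables and RefSeq.

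The members, lists and alternatives were chosen with earlier results of these data known. Named probes were the members, the 5 probes most like each, partner strands, seed sharers, and the highest and lowest probe of a compared cluster; miR-141, miR-486 and the fibroblast markers are from marker lists, and miR-148a, named in the closing section as nearest to miR-96 in sequence, was added after its value was seen. Of the 13 other clusters listed, 2 had fewer than 2 tested members and were left out.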

Additional observations from a re-analysis of the deposited data

How the results depend on the processing

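Over all tested probes 29 were called higher and 23 lower. The counts were 46 and 43 with offset 16, 48 and 37 with plain subtraction, 54 and 45 with quantile normalization, 47 and 13 with median centring, 48 and 56 with the authors' table, 54 and 41 when loess used detected probes, 138 and 8 with spike centring, and 6 and 1 at an adjusted p of 0.01. Without a filter 13 were lower, and among probes detected in all 4 samples, where miR-96 was not tested, 18 were higher. Of the calls 55.8% were higher as reported, 78.3% with median centring, 94.5% with spike centring and 46.2% with the authors' table.

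miR-96 (0.97) was called at 1.28 with offset 16, 2.53 with plain subtraction, 1.27 with median centring, 1.09 with loess on detected probes, 0.99 with quantile normalization, 2.37 with spike centring and 1.86 with the authors' table. miR-183 was called only with spike centring (1.55). miR-182 turned to 0.64 with median centring and to 1.30 with spike centring, where it was called higher. The cluster's median was 0.86 with median centring, 1.55 with spike centring and 0.26 with loess on detected probes. miR-96 minus miR-182 was 2.58 with plain subtraction, 0.63 with median centring and 1.91 with the authors' table, and miR-96 minus miR-183 was 2.33 with plain subtraction. The cause was not tested, except that spike centring shifts every ratio on an array alike.

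With no replicate block, 32 rose and 27 fell, and miR-183, miR-96 and miR-182 kept adjusted p-values of 0.736, 0.126 and 0.838. Leaving out an array or a sample (a stage left with 1 sample borrows the spread of the other) gave -0.15 to 0.45 for miR-183, 0.22 to 1.73 for miR-96, -0.58 to 0.37 for miR-182, 0.06 to 0.37 for the cluster's median, -0.19 to 1.84 for miR-96 minus miR-183, -0.52 to 1.03 for miR-183 minus miR-182, and 26 to 40 higher and 21 to 32 lower probes. Without differentiated replicate 1, miR-183 was at -0.020, miR-182 and the cluster's median were at 0.059, and miR-96 was called (1.73). The median was 0.28 without proliferating replicate 2. miR-182 was at 0.21 without proliferating replicate 1. Depth of signal limits miR-96, whose proliferating values were under the detection margin.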

Other observations

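Outside the cluster, no miRNA probe was nearer in sequence to miR-96 than miR-148a, an abundant miRNA of milk. It lies 8 edits away, as miR-183 does within the cluster, and between the nearest outside probes of miR-183 (7 edits) and miR-182 (9 edits). Ties were not examined, so other probes may lie as near, and miR-148a was added after its value was seen. Its log2 ratio of differentiated over proliferating cells was 3.27 ± 0.16 (SD, n = 2 arrays; limma adjusted p = 0.00873), 3.16 on array 1 and 3.39 on array 2. The ratio of miR-96 was 0.26 on array 1 and 1.69 on array 2. The part of shared hybridisation in the miR-96 signal was not tested.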
